A study of Homo sapiens with 3 samples.

Results

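The transcript levels of 53 genes of the lysosome and of autophagy were followed in cells of a human liver cancer line. The genes were chosen by symbol and matched by symbol to the 22827 Ensembl identifiers of the deposited table, and all 53 had a row. They comprised 3 transcription factors of the MiT/TFE family, 7 proteins of the lysosomal membrane and of cholesterol export, 21 hydrolases, 6 parts of the proton pump and 16 autophagy genes. Total RNA was sequenced from cells labelled Hep3B in 3 libraries, labelled by genotype as USP39-KO (knockout of USP39), SIRT7-KO (knockout of SIRT7) and control, with 1 library each. USP39 is a ubiquitin-specific protease homologue of the spliceosome, and SIRT7 is a nuclear deacylase of the sirtuin family. The sources used here do not say how the knockouts were made, whether a line is 1 clone or what the control cells carry. With 1 library per group no difference has a replicate check. No test was therefore made, no p-value is given, and each comparison describes these libraries.

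Lysosomes are acidic compartments in which hydrolases break down proteins, glycans, lipids and nucleic acids. A proton pump, the vacuolar ATPase, acidifies them, and membrane proteins carry the products out. Autophagy wraps cytoplasm in a double membrane, the autophagosome, and delivers it to lysosomes. TFEB, TFE3 and MITF are related factors that bind E-box motifs in promoters of many lysosomal genes. They enter the nucleus when nutrient signalling through mTORC1 at the lysosome is low.

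The libraries held 16630636 counts in USP39-KO, 16151522 in SIRT7-KO and 19427940 in the control. USP39 stood at 64.8 CPM (counts scaled to a fixed total through the effective library size) in USP39-KO and 94.1 CPM in the control, a log2 ratio of -0.54. SIRT7 stood at 37.3 CPM in SIRT7-KO and 50.6 CPM in the control, a log2 ratio of -0.44. Counts per gene cannot tell which exon was edited, nor the protein level. Of 12 genes that define hepatocytes, 6 had no read in any library, among them albumin (ALB) and alpha-fetoprotein (AFP), and 10 had under 10 reads in every library. The labelled liver cell type was thus not seen in its markers. Some genes used by nearly all cells also had no read, and why reads are missing was not tested. A count of 0 alone does not show that a gene was silent. The other hepatocyte genes were FGB and the liver factor gene HNF4A. FGB had 1 count in USP39-KO, 2 in SIRT7-KO and 55 in the control. HNF4A had 29 counts in USP39-KO, 7 in SIRT7-KO and 113 in the control. Summed over the 12 genes, levels were 2.07 CPM in USP39-KO, 0.674 CPM in SIRT7-KO and 9.21 CPM in the control, and the part of this difference in the results below was not tested. Macrophage markers, read because macrophages are rich in lysosomes, summed to 4.25 CPM in USP39-KO, 3.49 CPM in SIRT7-KO and 2.93 CPM in the control over 9 genes, of which 6, PTPRC, CD163 and MRC1 among them, had no read anywhere. Of 6 fibroblast markers 3 had under 10 reads in every library, and the sum (139.2 CPM in USP39-KO, 114.0 CPM in SIRT7-KO and 117.9 CPM in the control) came mainly from COL1A1.

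Of the 53 genes, 50 reached 10 counts in some library and are called measured below. GLA and NEU1 had no read in any library, and ATP6AP1 had 3 counts in USP39-KO, 1 in SIRT7-KO and 0 in the control. Levels between genes are given in the authors' FPKM, which divides by gene length. By this measure the saposin precursor PSAP was the most abundant in every library, with 299.9 FPKM in USP39-KO, 331.5 FPKM in SIRT7-KO and 291.8 FPKM in the control. It was followed in every library by the cathepsins CTSZ and CTSL, the tetraspanin CD63 and the thioesterase PPT1, in that order. The listed length of PPT1 is 64.9% of its exon bases in GENCODE 29, and its FPKM would be lower by that length. The median over the 50 measured genes was 16.3 FPKM in USP39-KO, 16.4 FPKM in SIRT7-KO and 16.1 FPKM in the control. Together the 53 genes took 0.637% of the counts in USP39-KO, 0.629% in SIRT7-KO and 0.596% in the control. In bulk RNA, fewer cells of a kind and less RNA per cell cannot be told apart.

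**Figure D1:**
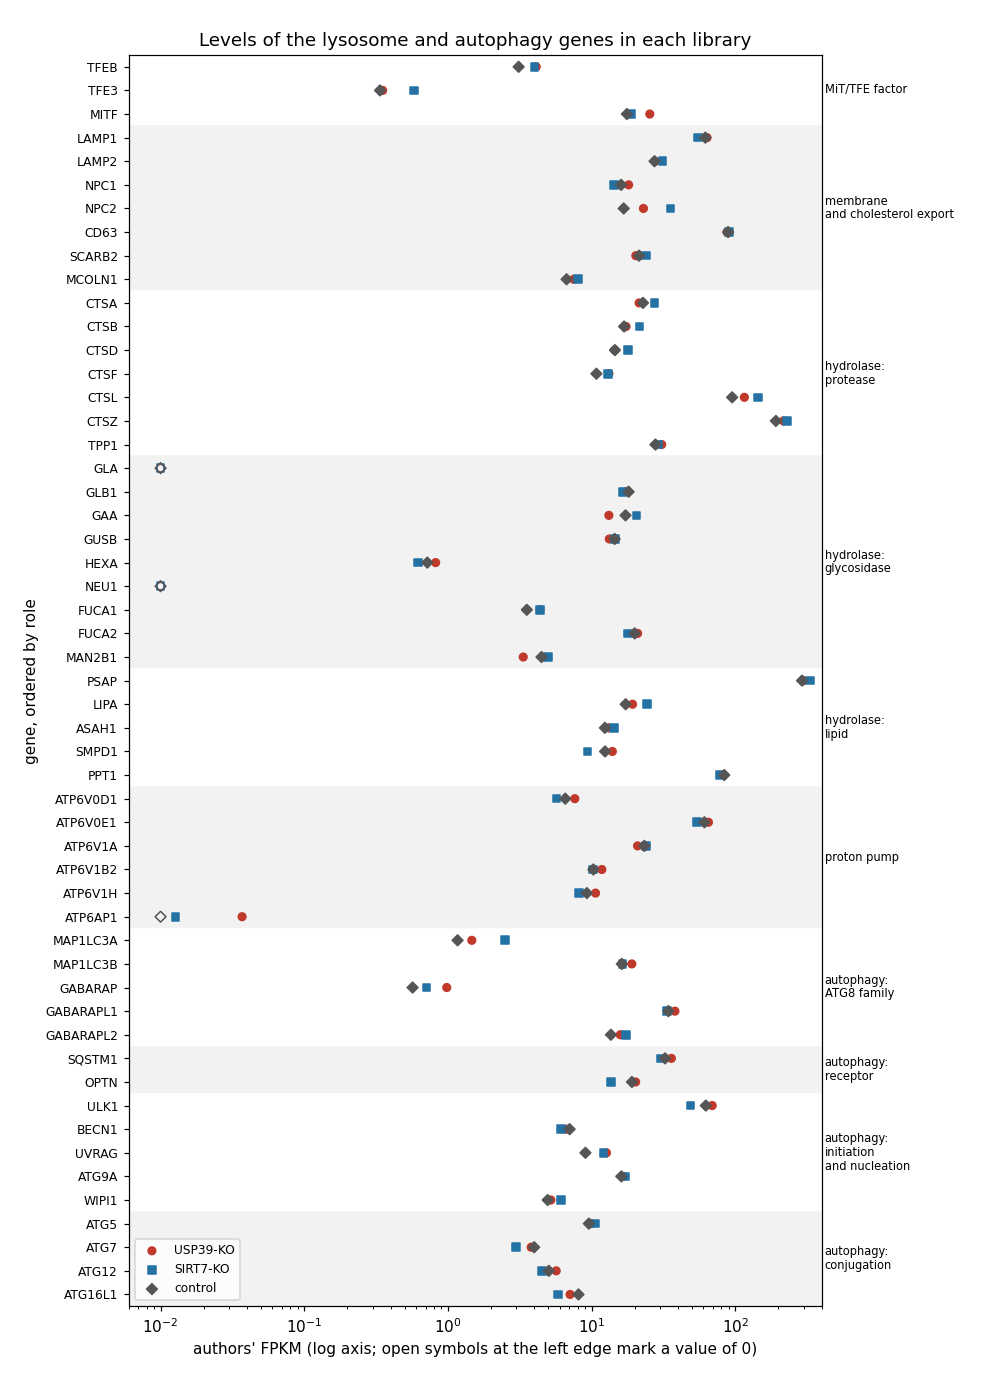
The authors' FPKM of each of the 53 genes (log axis) in USP39-KO (circles), SIRT7-KO (squares) and control (diamonds), ordered by role, with 1 point per library. Levels span from 0 (GLA and NEU1) to 331.5 FPKM (PSAP), and the 3 points of a gene mostly lie close together.

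A gene was counted as called where the log2 ratio of normalized counts was at least 1 in size, a 2-fold difference, and the exact 95% interval of the ratio excluded 0. The interval covers counting error only. In USP39-KO against control none of the 50 measured genes was called. Of all 12726 genes that reached 10 counts in some library, 1.49% were called higher and 3.37% lower in that comparison. Small differences leaned one way: 39 of the 50 had a log2 ratio above 0, against 49.6% of all genes, and the median was 0.13, against 0.00 over all genes. The members were chosen with earlier results of these data known, so this lean cannot be taken as independent of their choice. Of 139 measured other genes of the pathway, described further on, 79 (56.8%) had a log2 ratio above 0 in that comparison. The interval lay above 0 for 25 of the 50 genes and below 0 for 4, against 22.0% and 22.5% of all genes. A gene with more counts has a narrower interval, and most members have many counts. Among genes that reached 100 counts in some library it lay above 0 for 24 of 47 members and below 0 for 4. The shares of all such genes were 25.3% and 23.9%. In SIRT7-KO against control, NPC2 and MAP1LC3A were called higher and none lower, where the called shares of all genes were 3.02% higher and 4.05% lower. There 30 of 50 had a log2 ratio above 0, against 48.7% of all genes, and the median was 0.09, against -0.01. The interval lay above 0 for 22 genes and below 0 for 16, against 27.3% and 28.8% of all genes. With at least 100 counts it lay above 0 for 20 of 47 members and below 0 for 16, against 30.4% and 32% of all such genes. Both comparisons share the 1 control library.

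At a 1.5-fold rule with the interval excluding 0, the ATG8 gene GABARAP was the 1 gene past it in USP39-KO against control, where 3.19% of all genes lay higher and 6.40% lower by this rule. In SIRT7-KO against control TFE3 was past it beside NPC2 and MAP1LC3A, where the shares over all genes were 7.21% higher and 7.83% lower. Roles differed in their medians. In USP39-KO against control the median log2 ratio was 0.42 for the MiT/TFE factors, 0.05 for membrane and cholesterol export, 0.08 for 19 measured hydrolases, 0.21 for 5 measured pump genes and 0.16 for autophagy. In SIRT7-KO against control it was 0.35 for the factors, 0.15 for membrane and cholesterol export, 0.19 for hydrolases, -0.19 for the pump and -0.02 for autophagy.

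**Figure D2:**
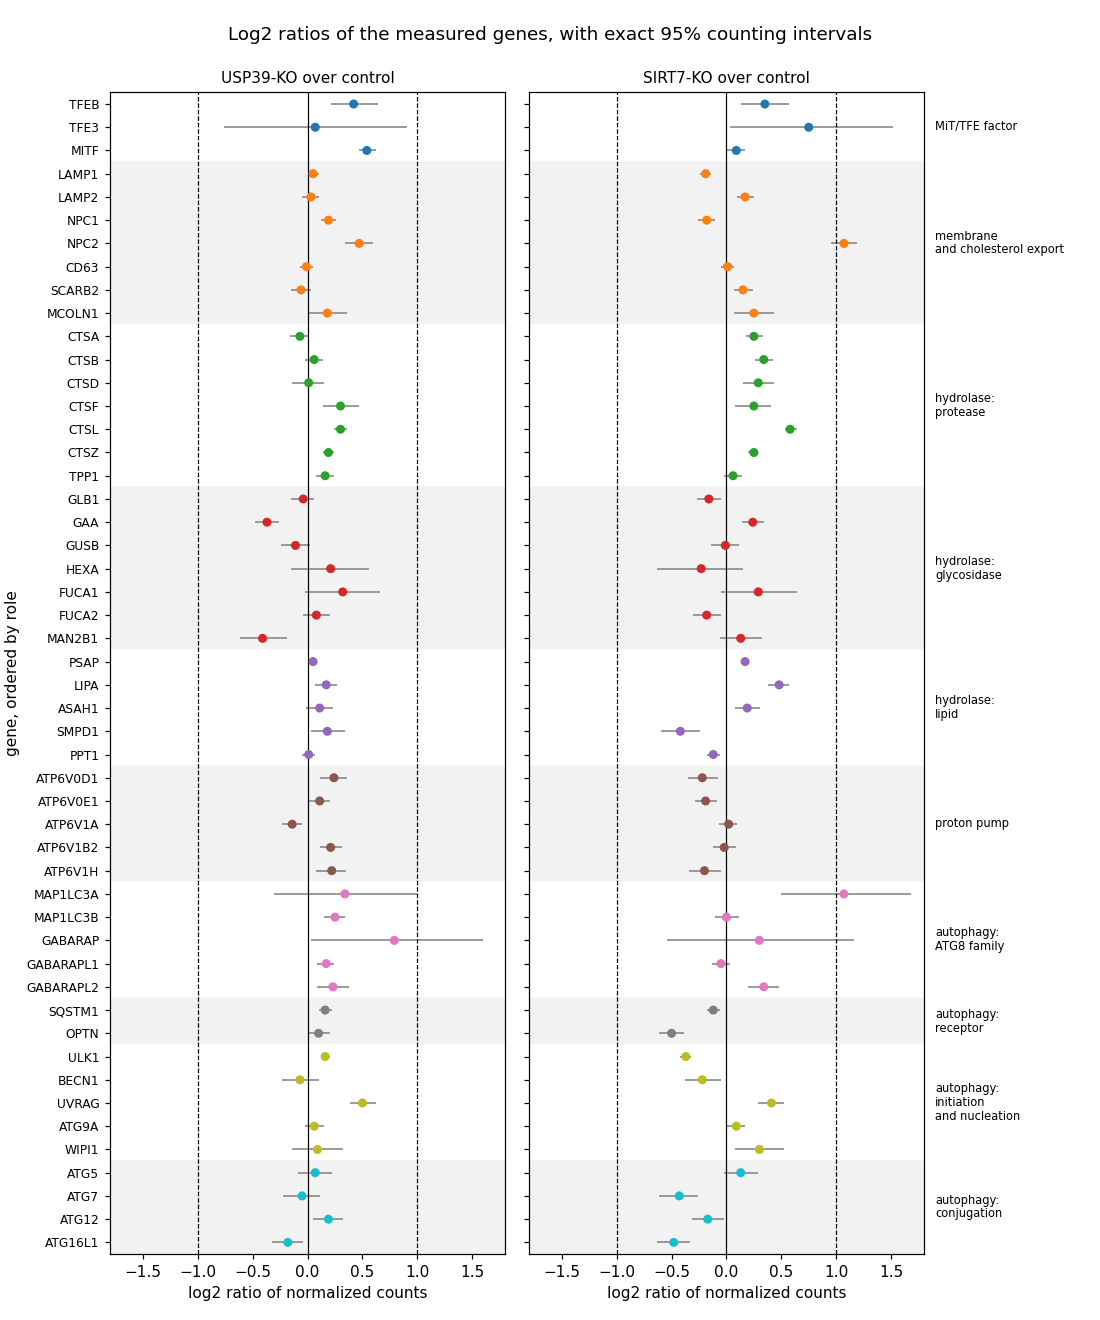
Log2 ratios of normalized counts of the 50 measured genes in USP39-KO over control (left) and SIRT7-KO over control (right), with points coloured by role, bars for the exact 95% counting interval and dashed lines at the 2-fold rule. On the left no point lies past a dashed line; on the right NPC2 and MAP1LC3A do, both at 1.07, and the proteases all lie above 0.

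The 3 MiT/TFE factors were unequal in level. MITF, known as the master factor of melanocytes, had 25.4 FPKM in USP39-KO, 18.9 FPKM in SIRT7-KO and 17.6 FPKM in the control. TFEB had 4.12 FPKM in USP39-KO, 4.001 FPKM in SIRT7-KO and 3.11 FPKM in the control. TFE3 was near the bottom of the list, with 0.351 FPKM in USP39-KO, 0.579 FPKM in SIRT7-KO and 0.337 FPKM in the control. MITF had the highest listed level of the 3 in every library. TFE3 lies on chromosome X, where 50.9% of protein-coding genes in the table had no read in any library, so its low level and its place in this order are uncertain. The melanocyte genes read beside it were low: the pigment enzyme gene TYR had no read in any library, and 5 melanocyte markers summed to 1.884 CPM in USP39-KO, 3.92 CPM in SIRT7-KO and 3.40 CPM in the control.

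MITF had 3056 counts in USP39-KO and 2474 in the control, a log2 ratio of 0.54 (interval 0.47 to 0.62). This was the largest log2 ratio in that comparison among members that reached 100 counts in USP39-KO or the control. In SIRT7-KO it had 2207 counts, a log2 ratio to the control of 0.09 (0.00 to 0.17). TFEB had 387 counts in USP39-KO and 341 in the control (log2 ratio 0.42, 0.21 to 0.64). In SIRT7-KO TFEB had 365 counts (log2 ratio to the control 0.35, 0.13 to 0.57), so it was higher than in the control in both knockout libraries by less than the 2-fold rule. TFE3 rested on few reads, with 25 counts in USP39-KO, 40 in SIRT7-KO and 28 in the control. Its log2 ratio was 0.07 (-0.76 to 0.91) in USP39-KO and 0.75 (0.03 to 1.52) in SIRT7-KO, each against the control.

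The E-box that MiT/TFE factors are known to bind was searched in promoters from 250 bases before to 50 bases after the gene start, taken from RefSeq (GRCh38.p14). Of the 53 genes, 42 had a promoter in that table. The 7-base motif TCACGTG, searched on both strands (CACGTGA on the other) and counted as 1 place where matches overlap, was found in 8 of the 42 (19.0%) and in 3.82% of all 27305 promoters. The 10-base palindrome that adds G before it and AC after it was found in 2 of the 42 (4.76%), MCOLN1 and GAA, and in 0.381% of all promoters. The 6-base core CACGTG alone, which every match of the longer motifs holds, was in 9 (21.4%) and in 7.43% of all promoters. By role, the 7-base motif stood in 5 of 17 hydrolase promoters, 2 of 6 promoters of membrane and cholesterol export genes and 1 of 2 pump promoters. It stood in 0 of 14 autophagy promoters and 0 of 3 MiT/TFE promoters. A match describes letters in this window and does not show a bound site, and no match says only that these letters are not in it. Among the other genes of the pathway described further on, 28 of 122 promoters (23.0%) held the 7-base motif.

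The promoter stretches of the 8 genes with the motif are shown to give its places. The motif is known from promoters of lysosomal genes, so its share in this list is not independent of the choice of genes. They run from 20 bases before the first match to 20 bases after the last match, 5′ to 3′ on the strand of the gene, with the motif in capitals. On GRCh38.p14 they lie at chr13:113297026-113297264 (plus strand) for LAMP1, chr19:7522562-7522636 (plus) for MCOLN1, chr20:45891272-45891336 (plus) for CTSA, chr11:1763948-1763994 (minus) for CTSD, chr11:66568703-66568749 (minus) for CTSF, chr17:80101484-80101576 (plus) for GAA, chr6:31862922-31862968 (minus) for NEU1 and chr16:67481190-67481237 (minus) for ATP6V0D1.
LAMP1: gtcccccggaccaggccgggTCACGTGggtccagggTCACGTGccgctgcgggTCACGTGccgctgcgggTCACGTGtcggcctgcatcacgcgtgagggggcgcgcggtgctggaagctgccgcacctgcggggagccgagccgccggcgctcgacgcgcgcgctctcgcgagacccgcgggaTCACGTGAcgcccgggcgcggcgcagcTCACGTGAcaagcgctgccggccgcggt
MCOLN1: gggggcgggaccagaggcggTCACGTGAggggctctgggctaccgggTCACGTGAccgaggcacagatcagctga
CTSA: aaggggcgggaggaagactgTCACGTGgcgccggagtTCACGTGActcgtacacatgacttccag
CTSD: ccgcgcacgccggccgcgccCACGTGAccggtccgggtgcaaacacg
CTSF: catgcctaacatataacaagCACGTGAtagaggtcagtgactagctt
GAA: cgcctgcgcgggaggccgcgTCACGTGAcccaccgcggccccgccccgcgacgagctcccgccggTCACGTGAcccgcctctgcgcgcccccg
NEU1: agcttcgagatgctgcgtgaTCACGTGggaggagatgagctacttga
ATP6V0D1: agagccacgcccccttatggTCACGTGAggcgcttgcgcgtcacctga

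LAMP1, the main lysosomal membrane glycoprotein, held the motif at 6 places, beginning 193, 177, 160, 143, 29 and 2 bases before the gene start. The calcium channel gene MCOLN1, the glycogen-digesting glucosidase GAA and the carboxypeptidase CTSA held it at 2 places each, all within 77 bases before the start. Of the 7 measured holders 5 had a log2 ratio above 0 in USP39-KO against control, and 5 in SIRT7-KO against control. Over the 7 measured holders the median log2 ratio was 0.05 in USP39-KO against control, and over the 32 measured genes with a promoter without it 0.16. In SIRT7-KO against control the medians were 0.25 over holders (from -0.22 to 0.29) and 0.03 over the others (from -0.50 to 1.07).

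**Figure D3:**
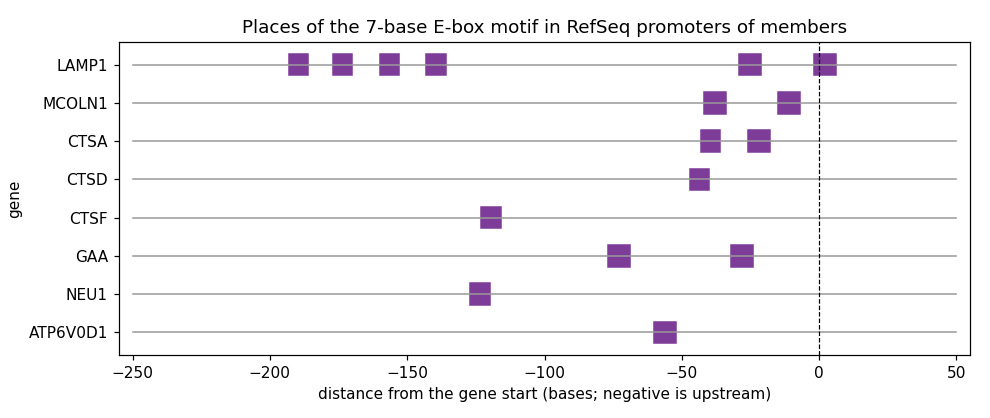
Places of the 7-base motif (boxes) in the promoters of the 8 members that hold it, by distance in bases from the gene start (dashed line). LAMP1 has 6 places, MCOLN1, CTSA and GAA have 2 each, and the other 4 genes have 1 each.

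Among membrane and cholesterol export genes, NPC2 stood out. It encodes the soluble protein that hands cholesterol inside the lysosome to the membrane transporter NPC1. NPC2 had 1050 counts in USP39-KO, 1575 in SIRT7-KO and 894 in the control, which is 63.8 CPM in USP39-KO, 96.5 CPM in SIRT7-KO and 46.0 CPM in the control. It was called 2.10-fold higher in SIRT7-KO than in the control (log2 ratio 1.07, 0.95 to 1.19), and it had a log2 ratio of 0.47 (0.34 to 0.60) in USP39-KO against control. Both knockout libraries were above the control, SIRT7-KO the more so. NPC1 had 184.9 CPM in USP39-KO, 143.3 CPM in SIRT7-KO and 162.2 CPM in the control. Its log2 ratio was 0.19 (0.12 to 0.26) in USP39-KO and -0.18 (-0.26 to -0.10) in SIRT7-KO, each against the control, so the partner of NPC2 did not share its difference in SIRT7-KO.

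LAMP1 had 368.9 CPM in USP39-KO, 311.6 CPM in SIRT7-KO and 355.4 CPM in the control, with log2 ratios to the control of 0.05 in USP39-KO and -0.19 (-0.24 to -0.14) in SIRT7-KO. LAMP2, the related glycoprotein that also serves chaperone-mediated autophagy, had 0.03 in USP39-KO and 0.17 (0.10 to 0.25) in SIRT7-KO. SCARB2, which carries glucocerebrosidase to lysosomes, had the lowest log2 ratio of the 7 genes in USP39-KO (-0.06, -0.15 to 0.03) and 0.15 in SIRT7-KO. MCOLN1 had 0.18 in USP39-KO and 0.25 (0.07 to 0.43) in SIRT7-KO. CD63, the most abundant of the 7 at 87.7 FPKM in USP39-KO, 90.7 FPKM in SIRT7-KO and 89.2 FPKM in the control, had log2 ratios of -0.01 (-0.07 to 0.05) in USP39-KO and 0.01 (-0.05 to 0.07) in SIRT7-KO.

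The 7 proteases shared a direction in SIRT7-KO. All 7 had a log2 ratio above 0 against the control, from 0.06 to 0.58, and the interval lay above 0 for 6 of them. Of all genes that reached 100 counts in some library, 48.6% lay above 0 and 30.4% had the interval above 0. None passed the 2-fold rule. The shared direction describes the 7 chosen genes. Of 30 measured other lysosome hydrolases, described further on, 20 lay above 0 and 10 below in SIRT7-KO against control. The cathepsins CTSC and CTSS were among those below. At the 1.5-fold rule CTSL lay at the limit, just short of it with the scaling used here and past it with plain library totals (0.60) and median-of-ratios size factors (0.59). The cysteine protease CTSL had 276.9 CPM in USP39-KO, 337.4 CPM in SIRT7-KO and 225.2 CPM in the control. Its log2 ratio to the control was 0.30 (0.24 to 0.36) in USP39-KO and 0.58 (0.53 to 0.64) in SIRT7-KO. Of the proteases CTSL thus had the highest ratio in SIRT7-KO. CTSB, another cysteine protease, had 130.6 CPM in USP39-KO, 158.6 CPM in SIRT7-KO and 125.3 CPM in the control, and the aspartic protease CTSD had 43.9 CPM in USP39-KO, 53.3 CPM in SIRT7-KO and 43.7 CPM in the control. Both lay near the control in USP39-KO (log2 ratio 0.06 for CTSB and 0.01 for CTSD) and above it in SIRT7-KO (0.34 for CTSB and 0.29 for CTSD). Exons of other annotated genes covered 52.7% of the exon bases of CTSD, so its reads cannot be told from theirs where the counting ignored this.

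CTSZ, the most abundant protease at 216.5 FPKM in USP39-KO, 230.4 FPKM in SIRT7-KO and 191.9 FPKM in the control, had log2 ratios to the control of 0.19 in USP39-KO and 0.25 in SIRT7-KO. CTSF, a further cysteine protease, had 0.30 (0.14 to 0.47) in USP39-KO and 0.25 in SIRT7-KO. CTSA, which also shields GLB1 and NEU1 from breakdown, was the protease with the lowest ratio in USP39-KO (-0.07, -0.16 to 0.01) and had 0.25 in SIRT7-KO. TPP1, which clips tripeptides from proteins, had 0.16 in USP39-KO and the lowest ratio in SIRT7-KO (0.06, -0.02 to 0.14). Summed counts of the 7 proteases came to 1215 CPM in USP39-KO, 1352 CPM in SIRT7-KO and 1086 CPM in the control.

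Glycosidases, which trim sugars from glycans, glycogen and glycolipids, lay on both sides of 0. The median log2 ratio of the 7 measured genes was -0.04 in USP39-KO and -0.01 in SIRT7-KO, each against the control. The glycogen-digesting enzyme GAA had 1132 counts in USP39-KO, 1712 in SIRT7-KO and 1727 in the control, which is 68.8 CPM in USP39-KO, 104.9 CPM in SIRT7-KO and 88.9 CPM in the control. Its log2 ratio to the control was -0.37 (-0.48 to -0.26) in USP39-KO and 0.24 (0.14 to 0.34) in SIRT7-KO. The mannosidase MAN2B1 had 18.2 CPM in USP39-KO, 26.4 CPM in SIRT7-KO and 24.1 CPM in the control, with -0.41 (-0.62 to -0.19), the lowest ratio of any measured member in USP39-KO, and 0.13 in SIRT7-KO. These 2 genes were lowest in USP39-KO, while the other 5 had intervals that included 0 in USP39-KO against control. Exons of other annotated genes covered 21.2% of the exon bases of MAN2B1.

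FUCA1, a lysosomal fucosidase, had the highest ratio of the glycosidases in both comparisons on 141 to 149 counts per library, at 0.32 (-0.02 to 0.66) in USP39-KO and 0.29 (-0.05 to 0.64) in SIRT7-KO. FUCA2, its secreted relative and the most abundant glycosidase in USP39-KO and the control, had 20.9 FPKM in USP39-KO, 17.9 FPKM in SIRT7-KO and 19.97 FPKM in the control. The galactosidase GLB1 had -0.04 in USP39-KO and -0.16 in SIRT7-KO, and the glucuronidase GUSB had -0.11 in USP39-KO and -0.01 in SIRT7-KO. HEXA, the alpha chain of hexosaminidase, was low at 0.822 FPKM in USP39-KO, 0.617 FPKM in SIRT7-KO and 0.719 FPKM in the control. It had the lowest ratio of the group in SIRT7-KO (-0.23, -0.63 to 0.15).

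The 5 genes of lipid breakdown split in SIRT7-KO. LIPA, the acid lipase that frees cholesterol from its esters, had 96.3 CPM in USP39-KO, 118.9 CPM in SIRT7-KO and 85.3 CPM in the control. Its log2 ratio to the control was 0.17 (0.07 to 0.27) in USP39-KO and 0.48 (0.38 to 0.57) in SIRT7-KO. SMPD1, the acid sphingomyelinase, had 38.9 CPM in USP39-KO, 25.6 CPM in SIRT7-KO and 34.2 CPM in the control. Its log2 ratio was 0.18 (0.03 to 0.34) in USP39-KO and -0.42 (-0.60 to -0.24) in SIRT7-KO, so SIRT7-KO held the highest level of LIPA and the lowest of SMPD1. PSAP had 0.05 in USP39-KO and 0.17 (0.14 to 0.20) in SIRT7-KO. The acid ceramidase ASAH1 had 0.11 in USP39-KO and 0.19 in SIRT7-KO. PPT1, which removes palmitate from proteins, had 0.01 in USP39-KO and -0.12 in SIRT7-KO.

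Most measured proton pump genes of the list were higher in USP39-KO than in SIRT7-KO. Of 5 measured genes, 4 had an interval above 0 in USP39-KO against control and 1 below 0. The shares of all genes that reached 100 counts in some library were 25.3% above and 23.9% below. In SIRT7-KO against control none had an interval above 0 and 3 had one below 0, where these shares were 30.4% and 32%. ATP6V0D1, a subunit of the membrane sector, had 63.4 CPM in USP39-KO, 46.4 CPM in SIRT7-KO and 53.9 CPM in the control. Its log2 ratio to the control was 0.24 (0.11 to 0.36) in USP39-KO and -0.22 (-0.35 to -0.08) in SIRT7-KO. The control lay between the knockouts also for ATP6V0E1, the most abundant pump gene, at 65.1 FPKM in USP39-KO, 54.2 FPKM in SIRT7-KO and 61.0 FPKM in the control. It lay between them for ATP6V1H, a regulatory subunit, as well, at 54.8 CPM in USP39-KO, 41.2 CPM in SIRT7-KO and 47.2 CPM in the control.

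ATP6V1B2, a subunit of the ATP-hydrolysing head, had 0.21 (0.11 to 0.31) in USP39-KO and -0.02 in SIRT7-KO. The catalytic subunit ATP6V1A went the other way, with 108.4 CPM in USP39-KO, 121.1 CPM in SIRT7-KO and 119.6 CPM in the control, and log2 ratios of -0.14 (-0.23 to -0.05) in USP39-KO and 0.02 in SIRT7-KO. Over 13 measured other pump subunits the medians were 0.16 in USP39-KO and 0.01 in SIRT7-KO. Of those 13, 7 had an interval above 0 and 0 below in USP39-KO, and 3 had one above and 3 below in SIRT7-KO.

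The ATG8 family holds the small proteins that are joined to lipid on the autophagosome membrane. GABARAPL1 was the most abundant of the 5 genes, at 38.1 FPKM in USP39-KO, 33.5 FPKM in SIRT7-KO and 34.3 FPKM in the control. MAP1LC3B had 19.1 FPKM in USP39-KO, 16.4 FPKM in SIRT7-KO and 16.2 FPKM in the control. MAP1LC3A had 1.47 FPKM in USP39-KO, 2.495 FPKM in SIRT7-KO and 1.17 FPKM in the control. In USP39-KO all 5 had a log2 ratio above 0 against the control, with the interval above 0 for 4. Over all genes 49.6% lay above 0 and 22.0% had the interval above 0. MAP1LC3B had 0.25 (0.15 to 0.34), GABARAPL2 0.23 (0.09 to 0.38) and GABARAPL1 0.17 (0.09 to 0.24). GABARAP had 37 counts in USP39-KO, 26 in SIRT7-KO and 25 in the control, with 0.79 (0.03 to 1.60) in USP39-KO. Exons of other annotated genes covered 55.7% of its exon bases, so its low level and its rank in the family are uncertain.

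In SIRT7-KO MAP1LC3A was called 2.10-fold higher than in the control on few reads, with 71 counts in SIRT7-KO, 43 in USP39-KO and 40 in the control (log2 ratio 1.07, 0.50 to 1.68). MAP1LC3B, its more abundant relative, had a log2 ratio of 0.00 (-0.10 to 0.11) in SIRT7-KO against control. GABARAPL2 had 0.34 (0.20 to 0.48) and GABARAPL1 -0.05 (-0.13 to 0.03). The family as a whole summed to 312.9 CPM in USP39-KO, 280.0 CPM in SIRT7-KO and 271.0 CPM in the control, so the call of MAP1LC3A weighed little in the family's total. Reads from near-identical members of a family can be split between them, and the sources used here do not say how the authors' counting treated them.

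The kinase gene ULK1, which starts autophagy, was the most abundant autophagy gene, at 69.2 FPKM in USP39-KO, 48.8 FPKM in SIRT7-KO and 62.5 FPKM in the control. It had 8750 counts in USP39-KO, 5999 in SIRT7-KO and 9234 in the control, which is 531.6 CPM in USP39-KO, 367.6 CPM in SIRT7-KO and 475.3 CPM in the control. Its log2 ratio to the control was 0.16 (0.12 to 0.20) in USP39-KO and -0.37 (-0.42 to -0.32) in SIRT7-KO. UVRAG, which joins Beclin in the lipid kinase complex of nucleation, had 81.5 CPM in USP39-KO, 76.3 CPM in SIRT7-KO and 57.6 CPM in the control. Its log2 ratio was 0.50 (0.39 to 0.62) in USP39-KO and 0.41 (0.29 to 0.52) in SIRT7-KO, above the control in both. BECN1, encoding Beclin, had the lowest ratio of initiation and nucleation genes in USP39-KO (-0.07, -0.23 to 0.10), and -0.22 (-0.38 to -0.05) in SIRT7-KO. The lipid scramblase gene ATG9A had 0.06 in USP39-KO and 0.09 in SIRT7-KO. WIPI1, which reads the lipid made by that kinase, had 0.09 in USP39-KO and 0.30 (0.08 to 0.52) in SIRT7-KO.

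Genes that conjugate ATG8 proteins to lipid had a median log2 ratio of 0.01 in USP39-KO and -0.30 in SIRT7-KO, each against the control. ATG16L1, which directs the conjugation machinery to the membrane, had 43.3 CPM in USP39-KO, 35.1 CPM in SIRT7-KO and 49.1 CPM in the control. It was the 1 autophagy gene whose interval lay below 0 in both comparisons, with -0.18 (-0.32 to -0.04) in USP39-KO and -0.48 (-0.63 to -0.33) in SIRT7-KO. ATG7, the activating enzyme of both conjugation pathways, had 33.9 CPM in USP39-KO, 26.04 CPM in SIRT7-KO and 35.2 CPM in the control, with -0.05 in USP39-KO and -0.43 (-0.61 to -0.26) in SIRT7-KO. ATG12, a ubiquitin-like protein, had 0.19 (0.05 to 0.32) in USP39-KO, the highest of the 4, and -0.17 (-0.31 to -0.02) in SIRT7-KO. ATG5, to which ATG12 is joined, was the most abundant of the 4 in every library, at 9.91 FPKM in USP39-KO, 10.6 FPKM in SIRT7-KO and 9.58 FPKM in the control, though its listed length is 69.4% of its exon bases in GENCODE 29. It had 0.07 in USP39-KO and 0.13 in SIRT7-KO, the highest of the 4.

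The receptors bring cargo to the autophagosome. OPTN, known for its part in the clearance of mitochondria, had 104.9 CPM in USP39-KO, 69.1 CPM in SIRT7-KO and 97.8 CPM in the control. Its log2 ratio to the control was 0.10 (0.01 to 0.20) in USP39-KO and -0.50 (-0.61 to -0.39) in SIRT7-KO, the lowest of any measured member there. SQSTM1, the receptor that is itself degraded by autophagy, had 278.5 CPM in USP39-KO, 229.4 CPM in SIRT7-KO and 248.8 CPM in the control, with 0.16 (0.10 to 0.22) in USP39-KO and -0.12 (-0.18 to -0.06) in SIRT7-KO. For both receptors USP39-KO was the highest library and SIRT7-KO the lowest. Transcript levels do not measure autophagic flux or the lipid-joined form of ATG8 proteins.

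USP39-KO and SIRT7-KO were also set against each other, a comparison that does not use the control. None of the 50 measured genes was called, where 3.51% of all genes were called higher and 5.03% lower in USP39-KO than in SIRT7-KO. The log2 ratio was above 0 for 27 of the 50, against 50.4% of all genes, and the median was 0.06, against 0.00. The interval lay above 0 for 20 genes and below 0 for 14, against 29.8% and 29.2% of all genes. With at least 100 counts it lay above 0 for 20 of 47 members and below 0 for 13, against 34.1% and 31.7% of all such genes. By role the medians were 0.07 for the MiT/TFE factors, -0.07 for membrane and cholesterol export, -0.08 for hydrolases, 0.29 for the pump and 0.23 for autophagy. Within the hydrolases they were -0.28 for proteases, 0.03 for glycosidases and -0.08 for lipid breakdown, and no difference between roles was tested. Of the 16 autophagy genes 8 had an interval above 0 and 1, MAP1LC3A, below 0. Of the 7 proteases 1, TPP1, had an interval above 0 and 5 below 0.

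At the 1.5-fold rule 7.91% of all genes were higher and 10.3% lower, and 2 members were higher and 3 lower, always in USP39-KO relative to SIRT7-KO. SMPD1 (log2 ratio 0.61, 0.43 to 0.79) and OPTN (0.60, 0.49 to 0.71) were higher in USP39-KO. GAA (-0.61, -0.72 to -0.50), NPC2 (-0.60, -0.71 to -0.48) and MAP1LC3A (-0.73, -1.32 to -0.17) were lower in USP39-KO. With plain library totals SMPD1 (0.58) and OPTN (0.57) came out short of this rule. MAN2B1 (-0.54, -0.76 to -0.32), ULK1 (0.53, 0.48 to 0.58) and MITF (0.46, 0.38 to 0.54) came close to it. TFEB did not differ beyond counting error (0.07, -0.14 to 0.28), and neither did CD63 (-0.02, -0.08 to 0.05) or UVRAG (0.10, -0.02 to 0.21). Summed over the role, autophagy genes had 1666 CPM in USP39-KO and 1356 CPM in SIRT7-KO, and proteases 1215 CPM in USP39-KO and 1352 CPM in SIRT7-KO.

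**Figure D4:**
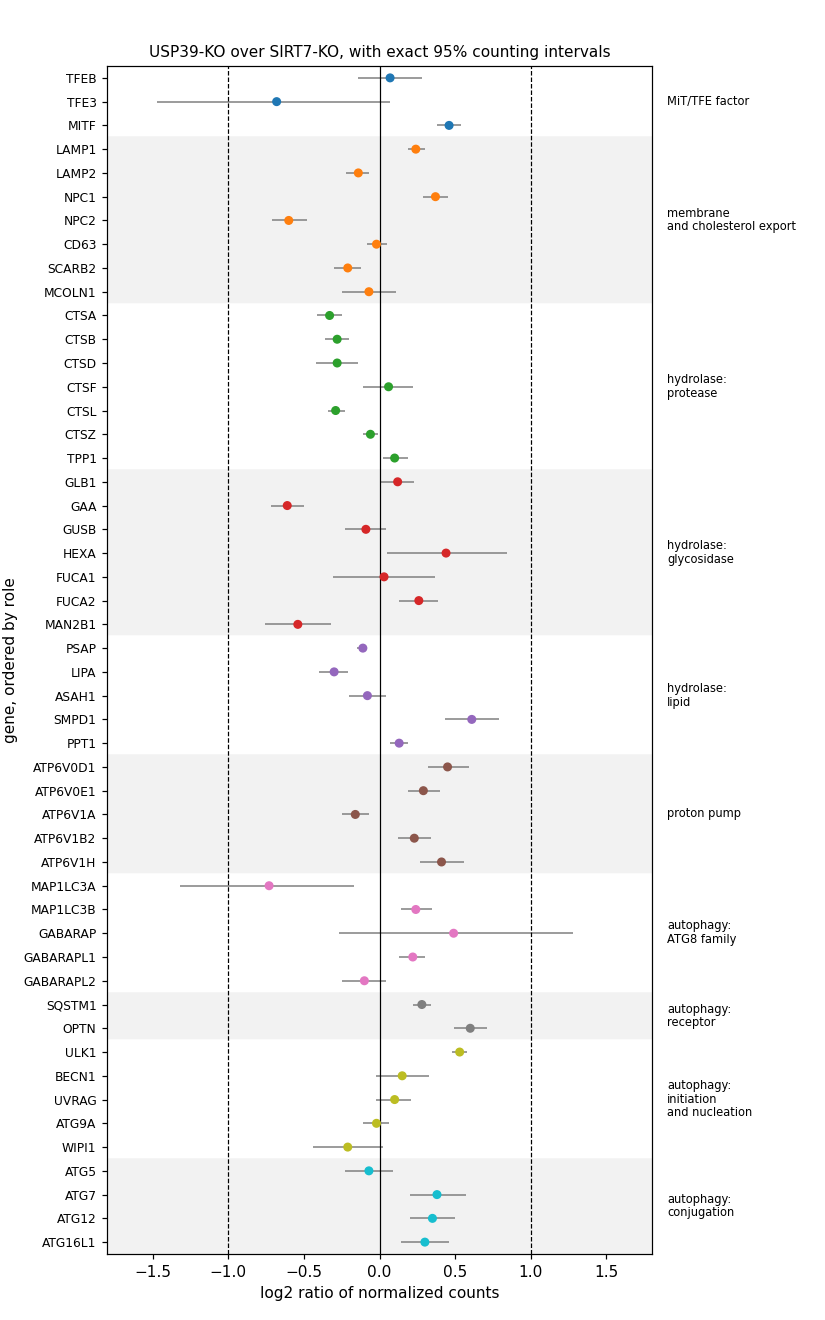
Log2 ratios of normalized counts of the 50 measured genes in USP39-KO over SIRT7-KO, with points coloured by role, bars for the exact 95% counting interval and dashed lines at the 2-fold rule. Most autophagy and pump genes lie right of 0 and most proteases left of 0, and SMPD1 at 0.61 and MAP1LC3A at -0.73 are the highest and lowest.

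A further 154 genes of the pathway in 8 lists were read beside the members, of which 153 were found and 139 measured. In USP39-KO against control 3 of the 139 were called higher and 3 lower, beside 1.49% higher and 3.37% lower over all genes, with a median log2 ratio of 0.03. In SIRT7-KO against control 1 was called higher and 2 lower, beside 3.02% and 4.05% over all genes, with a median of 0.01. These few calls are near the background of all genes and are described as single genes only. GPNMB, a lysosomal and melanosomal glycoprotein known as a target of MiT/TFE factors, was the 1 gene called higher in both. It had 661 counts in USP39-KO, 637 in SIRT7-KO and 287 in the control, which is 40.2 CPM in USP39-KO, 39.0 CPM in SIRT7-KO and 14.8 CPM in the control. It was 2.72-fold higher in USP39-KO (log2 ratio 1.44, 1.24 to 1.65) and 2.64-fold higher in SIRT7-KO (1.40, 1.20 to 1.61), each against the 1 shared control.

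SORT1, the sorting receptor that carries some hydrolases to lysosomes, had 83 counts in USP39-KO, 199 in SIRT7-KO and 393 in the control. It was called 3.99-fold lower in USP39-KO than in the control (log2 ratio -2.00, -2.36 to -1.66), and had -0.73 (-0.98 to -0.48) in SIRT7-KO. Over the 9 sorting genes the median was -0.11 in both comparisons. CTSC, a dipeptidyl peptidase that activates serine proteases, had 71 counts in USP39-KO, 54 in SIRT7-KO and 180 in the control, and was called lower in USP39-KO (-1.10, -1.52 to -0.70) and in SIRT7-KO (-1.48, -1.95 to -1.04). ULK2, the relative of ULK1, had 238 counts in USP39-KO, 90 in SIRT7-KO and 129 in the control. It was called higher in USP39-KO than in the control (1.12, 0.81 to 1.44) and had -0.27 (-0.67 to 0.13) in SIRT7-KO.

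The calls of CTSS and TFEC rested on few reads and are named for completeness, chosen after their values were seen. CTSS, a cathepsin of antigen-presenting cells, had 5 counts in USP39-KO, 0 in SIRT7-KO and 17 in the control and was called lower in both comparisons. With SIRT7-KO set at a floor of 3 counts and the control count taken as exact, it was 4.76-fold lower in SIRT7-KO than in the control. The upper end of its log2 interval there was -1.79. TFEC, another MiT/TFE gene, had 10 counts in USP39-KO, 1 in SIRT7-KO and 0 in the control. With the control set at the same floor and the USP39-KO count taken as exact, TFEC was 3.93-fold higher in USP39-KO than in the control. The lower end of its log2 interval there was 1.40. Between the knockouts 4 of the 139 were called higher and 2 lower in USP39-KO than in SIRT7-KO, beside 3.51% and 5.03% over all genes. Those with a minimum of 100 counts in either library were ULK2 (log2 ratio 1.39, 1.04 to 1.76) and RETREG1, both higher, and SORT1 (-1.27, -1.66 to -0.90), lower. RETREG1, a receptor for autophagy of the endoplasmic reticulum, had 80.5 CPM in USP39-KO and 36.7 CPM in SIRT7-KO (1.13, 0.99 to 1.27). Genes of nutrient sensing at the lysosome had medians of 0.18 in USP39-KO and 0.09 in SIRT7-KO, each against the control. Of the 17 measured genes of this list 12 lay above 0 in USP39-KO and 10 in SIRT7-KO, against 49.6% and 48.7% of all genes. The folliculin gene FLCN, a regulator of MiT/TFE factors, had log2 ratios of 0.57 (0.35 to 0.79) in USP39-KO and 0.31 (0.07 to 0.54) in SIRT7-KO. RPTOR, of the same list, went the other way, with -0.52 (-0.64 to -0.41) in USP39-KO and -0.15 (-0.26 to -0.04) in SIRT7-KO. Both were named after their values were seen.

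The other 30 measured lysosome hydrolases had a median log2 ratio of -0.09 in USP39-KO and 0.16 in SIRT7-KO, each against the control, with 13 above 0 in USP39-KO and 20 in SIRT7-KO. In USP39-KO the lean of the member hydrolases (14 of 19 above 0) was therefore not seen in the wider list. Medians in USP39-KO were -0.01 for other lysosome membrane proteins, 0.01 for other core autophagy genes and 0.04 for autophagosome fusion. In SIRT7-KO they were 0.01, -0.01 and -0.10 for these lists in that order. The list of other autophagy receptors, which also holds 3 rare ATG8 relatives, had 0.21 in USP39-KO and 0.05 in SIRT7-KO over 12 measured genes.

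**Figure D5:**
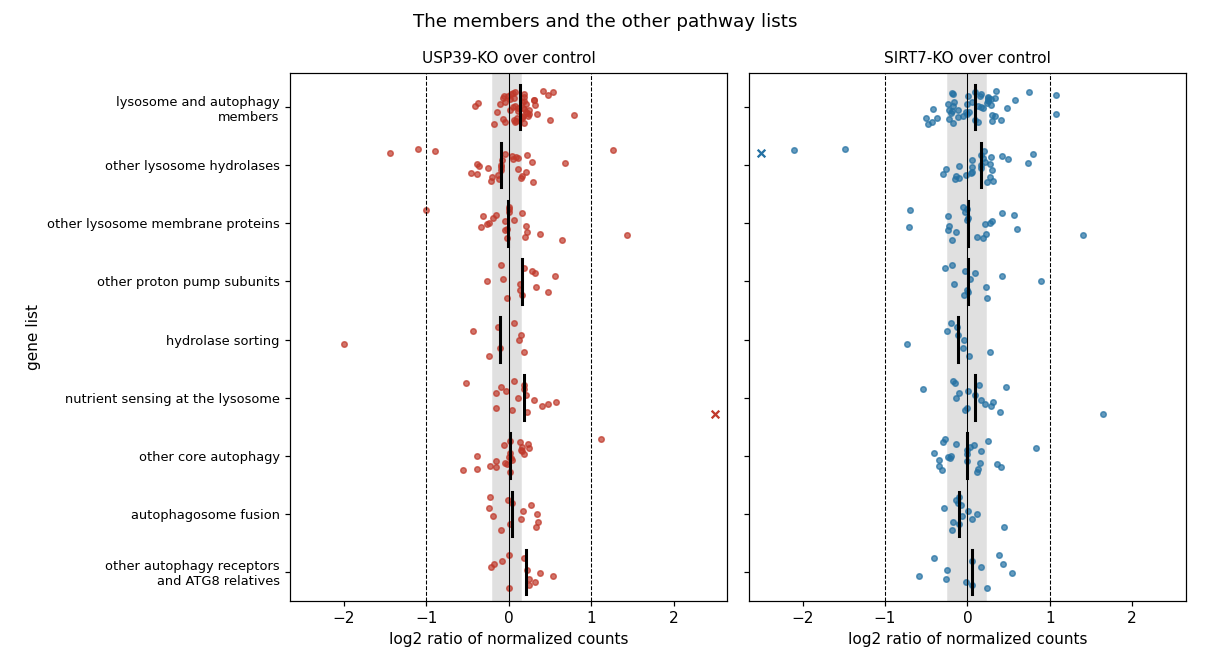
Log2 ratios of normalized counts in USP39-KO over control (left) and SIRT7-KO over control (right), with 1 point per measured gene for the 50 members and for the 8 other lists. Thick bars mark list medians, the grey band spans the interquartile range of all genes tested, dashed lines mark the 2-fold rule, and crosses at the edge mark TFEC (left) and CTSS (right), which lie beyond the axis.

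Members with few or no reads need care. GLA, an X-linked galactosidase, NEU1, a sialidase, and ATP6AP1, an X-linked accessory subunit of the pump, serve lysosomes of nearly all cells. Where no read was seen, counting error alone allows a level up to that of 3 reads. That is 0.182 CPM in USP39-KO, 0.184 CPM in SIRT7-KO and 0.154 CPM in the control. The limit does not hold where reads are missing for another reason. Of 772 protein-coding genes of chromosome X in the table, 50.9% had no read in any library. Of 183 on chromosome 6 between 28.5 and 34.0 Mb (GENCODE 29, GRCh38), where NEU1 lies, 77.6% had none, against 21.2% of 18098 other autosomal genes. The stretch was chosen after these values were seen. In the other lists 8 of the 153 found genes had no read in any library, beside 7183 of all 22827 genes. These were CTSO, GALC, HYAL2, CD68, ATP6V1B1, ATP6V1G2, RRAGD and MAP1LC3C. Exons of other genes in GENCODE 29 covered no base of GLA, NEU1, ATP6AP1, TFE3 or MAP1LC3A. Why reads are missing was not tested, and a 0 here is not evidence that a gene was silent. LAMP2, also on chromosome X, had 2587 counts in USP39-KO, 2836 in SIRT7-KO and 2994 in the control.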

How the data were processed

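Per the labels' protocols, Trizol was used for total RNA and an Illumina TruSeq kit for the libraries. The authors deposited 1 table with a gene length, read counts and FPKM per library, per the file headers. The counts are whole reads per gene, not normalized by the authors. The deposited FPKM are counts scaled by listed length and library total, within a relative tolerance of 1e-06 for every gene with reads. The aligner, counter, build and annotation: not given in the sources used here. Symbols came from a table of gene names by Ensembl identifier. Listed lengths lay within 5% of the exon bases of GENCODE 29 for 43 of 53 members. For the other 10, among them SCARB2, ASAH1, PPT1 and ATG9A, FPKM depends on the annotation used. Exons of other annotated genes covered over 20% of the exon bases of 8 members. These were CTSD, GABARAP, ATG9A, CTSA, WIPI1, PPT1, SQSTM1 and MAN2B1.

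TMM factors from edgeR 4.0.16 (0.9896 in USP39-KO, 1.0104 in SIRT7-KO and 1.0000 in the control) gave effective library sizes and CPM. No edgeR test was run, since 1 library per group allows no dispersion. Log2 ratios added 0.5 counts (the prior, in proportion to library size), with the exact conditional 95% interval (Clopper-Pearson) computed with scipy 1.17.1. Without molecular identifiers reads may be copies of 1 molecule, and intervals and floors hold counting error only. A gene was kept if it reached 10 counts in some library. The steps ran on all genes and were tested on simulated counts. Alternatives were other scalings, filters, priors and a 1.5-fold rule.

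The members and lists were chosen with earlier results of these data known. Values are given for the MiT/TFE factors, for called members, and for the most abundant member and those with the highest and lowest ratio of each role with a minimum of 100 counts in either library. Other members are named for their role. In the other lists, called genes with that minimum and genes with no read in any library were named. FLCN and RPTOR were named after their values were seen. RefSeq promoters (GRCh38.p14) were matched by symbol.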

Additional observations from a re-analysis of the deposited data

How the results depend on the processing

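No paired analysis was possible because each group has 1 library. With plain library totals, median-of-ratios size factors, TMM without genes of the mitochondrial genome or a prior of 2 counts, the counts of called members stayed at 0 for USP39-KO over control, 2 for SIRT7-KO over control and 0 when the knockouts were compared. Log2 ratios of single members moved by at most 0.04 under these settings, inside their intervals. CTSD and PPT1 in USP39-KO against control became -0.01 with plain totals, and no other sign changed among ratios rounded to 2 decimals. Ratios that rounded to 0 were not counted as sign changes. Medians of members ranged from 0.11 to 0.14 in USP39-KO against control, from 0.06 to 0.10 for SIRT7-KO over control and from 0.03 to 0.07 for USP39-KO over SIRT7-KO, over these settings and both other count filters. With a minimum of 100 counts in some library, which leaves out MAP1LC3A, 1 member was called in SIRT7-KO against control. With a 1.5-fold rule 1 member was called in USP39-KO against control, 3 for SIRT7-KO over control and 5 for USP39-KO over SIRT7-KO, of which 2 were higher and 3 lower. At that rule the scaling decides CTSL in SIRT7-KO against control (0.60 with plain totals) and SMPD1 (0.58) and OPTN (0.57) in USP39-KO over SIRT7-KO with plain totals. Depth limits TFE3, MAP1LC3A and GABARAP, each under 100 counts in every library, and spread between cultures was not measured.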
